A study of Bos taurus with 147 samples.

Results

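LYVE1, EPAS1 and the vascular endothelial genes KDR, TEK, PECAM1 and CDH5 are 6 genes whose transcripts were measured in the adrenal cortex of cows. They were chosen by gene symbol: for each symbol the platform annotation was searched for the transcript with the highest mean signal, and each of the 6 symbols had exactly 1 transcript, so the group holds 6 of 10986 transcripts. The study measured adrenal cortex RNA of female cows, the F2 generation of a cross of Charolais with German Holstein, in order to map how inherited variation affects transcript abundance. LYVE1 and EPAS1 are among the transcripts for which the study lists associated markers, and genotypes were not analysed here. The cows descended from Charolais sires and German Holstein cows, comprised half-sib and full-sib families, lived in 1 barn under the same feeding, and were slaughtered in the second lactation, 30 days after calving. All 145 cows with values shared this breeding, sex, housing and stage, so there was no treated group, and the groups compared are 25 classes of year and season of slaughter with 2 to 13 cows each: 36 cows were slaughtered in spring, 45 in summer, 38 in autumn and 26 in winter, at ages of 1127 to 1774 days. The classes span 8 successive years, here counted from year 1 (Summer2004 and autumn2004) to year 8 (2011), so that year 4 began with Spring2007 and a winter belongs to the year it began in.

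Endothelial cells line blood and lymph vessels, and the adrenal cortex is laced with wide, thin-walled capillaries that carry steroid hormones away from the secreting cells. Vascular endothelial growth factors bind receptor tyrosine kinases on the endothelium, of which KDR (VEGF receptor 2) carries most of the growth signal, while angiopoietins act through TEK (Tie2), a receptor that keeps vessels quiescent and stable. PECAM1 and CDH5 (VE-cadherin) hold neighbouring endothelial cells together at their junctions, LYVE1 is a receptor for hyaluronan known from lymphatic endothelium, sinusoidal endothelium and some tissue macrophages, and EPAS1 encodes HIF-2alpha, an oxygen-regulated transcription factor that is abundant in endothelium.

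Values are log2 signals of 1 array per cow, so a difference of 1 is a doubling of signal. The array medians lay between 7.89 and 8.08, any 2 arrays had a correlation of at least 0.895 (median 0.973), and the number of arrays limits the precision. Among the genes that mark other cell types, the mean signal of 6 measured steroid cell markers of the cortex stayed between 11.99 and 12.47 over the cows. The mean of 6 chromaffin cell markers, genes of the adrenal medulla such as TH, DBH and PNMT, ran from 6.82 to 11.76 (SD 0.95), so the level of medullary transcripts differed widely between cows. The first principal component of the residuals, which is the direction that holds the largest share of the variation left after class and age, took up 28.9% of it, and it was computed without the 6 genes. In a bulk tissue, fewer cells of a type and less RNA per cell cannot be told apart.

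All 6 genes had a value in every cow, and they varied by 2.13-fold to 3.03-fold between the lowest and the highest cow. LYVE1 had a lowest signal of 11.21, a median of 11.90 and a highest signal of 12.47, with a mean of 11.90 ± 0.24 (SD, n = 145). EPAS1 ran from 10.74 over a median of 11.30 to 11.98 (mean 11.30 ± 0.20), and its range was 2.37-fold. Both genes thus spread over a little more than a doubling.

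The receptor KDR had a lowest signal of 8.56, a median of 9.48 and a highest signal of 10.10 (mean 9.47 ± 0.29, SD, n = 145), the largest SD of the 6. TEK ran from 8.31 over a median of 8.98 to 9.61 (mean 8.99 ± 0.23), a 2.46-fold range. The junction gene CDH5 had the narrowest range, 2.13-fold, with a lowest signal of 8.95, a median of 9.57 and a highest signal of 10.04 (mean 9.55 ± 0.21). PECAM1 ran from 8.85 over a median of 9.85 to 10.45 (mean 9.86 ± 0.21), and its 3.03-fold range rested on 1 cow of Summer2011, whose signal of 8.85 lay below the next lowest in its class, 9.73.

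After class and age were removed, the residual SD was 0.24 for LYVE1, 0.19 for EPAS1, 0.29 for KDR, 0.21 for PECAM1, 0.20 for CDH5 and 0.23 for TEK. Compared with transcripts of similar mean signal (the 10 groups of the ranked means), these SDs stood between the 40.9th percentile, for CDH5, and the 73.0th percentile, for LYVE1, and were thus ordinary. Because LYVE1 and EPAS1 are listed with associated markers, it was asked whether their residuals fell into separate groups of cows. Normal mixtures with 1 to 3 components, chosen by the Bayesian information criterion, took 1 component for LYVE1, EPAS1, KDR, CDH5 and TEK. PECAM1 took 2 components, of which one was the single cow named above against all others. Thus 1 of 6 genes had several components, against 5.21% of all transcripts.

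**Figure D1:**
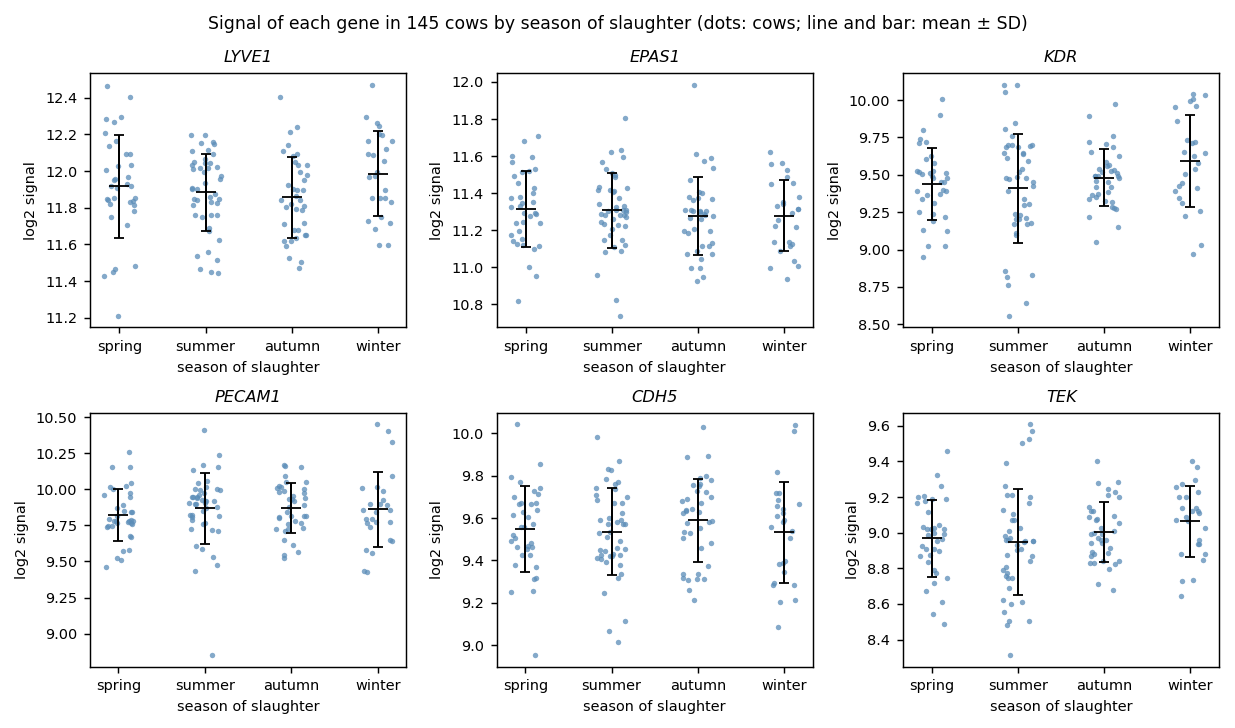
Signal (log2) of the 6 genes by season of slaughter, with 1 dot per cow (36 spring, 45 summer, 38 autumn, 26 winter) and lines and bars for mean ± SD. The seasons overlap for every gene, KDR and TEK have their highest means in winter (9.59 and 9.06) and their widest spread in summer (SD 0.37 and 0.30), and 1 summer cow lies alone at 8.85 for PECAM1.

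The comparison of seasons asks whether the 6 genes followed the time of year at slaughter. KDR was the gene in which the opposite seasons lay farthest apart. In 45 summer cows its signal had a lowest value of 8.56, a median of 9.47 and a highest value of 10.10, and in 26 winter cows 8.97, 9.60 and 10.04, so that the groups overlapped over nearly their whole range. With year and age in the fit and the class as a random block, summer minus winter was -0.19 ± 0.068 (SE) for KDR (p = 0.0061, adjusted p = 0.253 in limma over all transcripts). The correlation within classes was slightly negative (-0.0154), so the block made the SE smaller. Without the block the KDR difference was -0.19 ± 0.071 (SE, adjusted p = 0.345, limma). TEK differed by -0.12 ± 0.055 (p = 0.031, adjusted p = 0.339), with a median of 8.95 in summer and 9.10 in winter. LYVE1 differed by -0.11 ± 0.056 (p = 0.061, adjusted p = 0.392), with medians of 11.90 in summer and 11.98 in winter. For EPAS1, PECAM1 and CDH5 the differences were 0.034, 0.0052 and -0.00215, each smaller than its SE.

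None of the 6 genes passed the adjusted threshold of 0.05 for summer minus winter, nor for a difference among the 4 seasons, and neither did any transcript (percent called: 0% for each test). On simulated data the summer minus winter test recovered 0% of transcripts shifted by 0.5 residual SD and 73.5% of those shifted by 1. Small differences can thus be missed. At an unadjusted p under 0.05 there were 1477 transcripts for summer minus winter and 1020 for the seasons. Within the years that held both seasons, the KDR difference was uneven. It was -0.23 in year 4 (5 summer and 7 winter cows), 0.051 in 2008 (8 and 8), -0.064 in 2009 (9 and 4) and -0.49 in 2010 (8 and 7). The class winter2010/2011 had the highest KDR mean of all 25 classes, 9.85 ± 0.21 (SD, n = 7), against 9.36 in the summer of 2010. Without 2010 the difference was -0.077 (adjusted p = 0.783), so that the KDR difference rested largely on that year. The mean of the chromaffin markers moved with the same contrast: it averaged 10.01 ± 0.87 in summer and 9.48 ± 0.85 in winter (SD), with ranges of 7.98 to 11.51 in summer and 7.23 to 10.76 in winter. With that mean as a covariate, an alternative added after the data were seen, summer minus winter was -0.14 for KDR (adjusted p = 0.412) and -0.085 for TEK (adjusted p = 0.436), against -0.19 and -0.12 without it, so both differences were smaller but kept their sign.

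**Figure D2:**
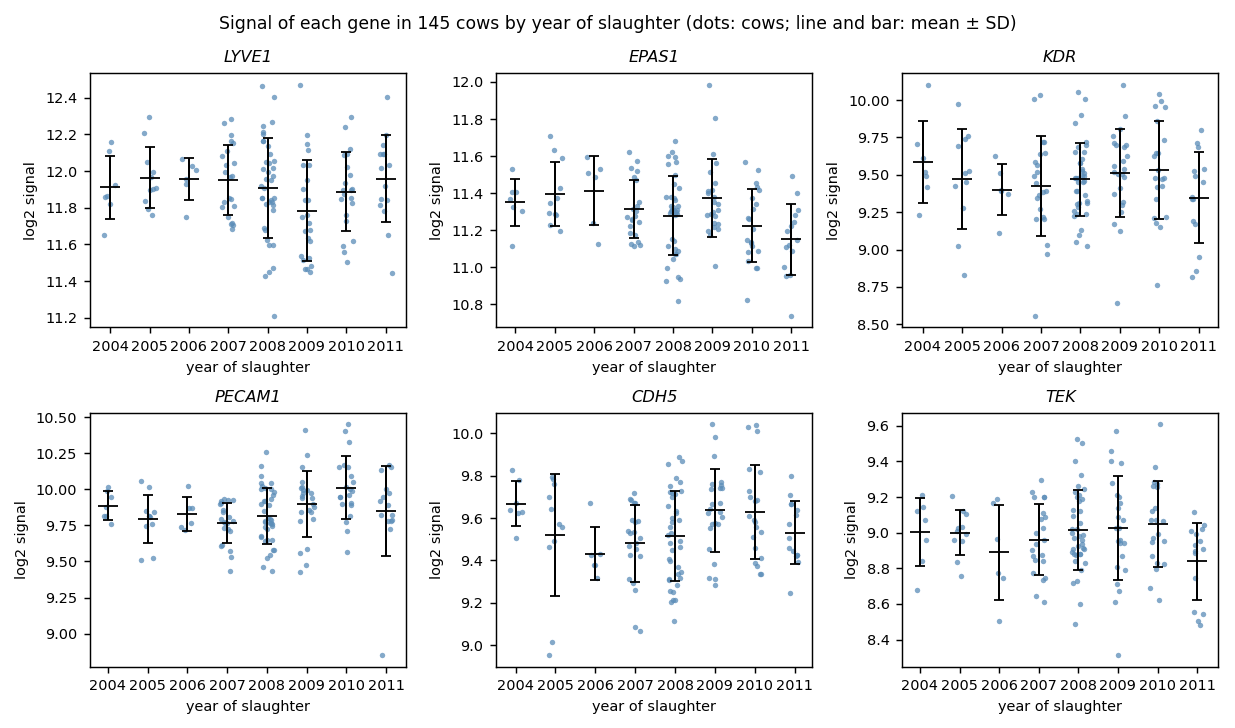
Signal (log2) of the 6 genes by year of slaughter (8 calendar years, ending in 2011), with 1 dot per cow and lines and bars for mean ± SD. EPAS1 means lie between 11.15 in 2011 and 11.41 in the third year, PECAM1 means between 9.77 in the fourth year and 10.01 in 2010, and the clouds of all years overlap.

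Over the years of slaughter, EPAS1 fell and PECAM1 rose, and the other 4 genes did not pass the test. EPAS1 averaged 11.35 ± 0.13 in year 1 (SD, n = 7), 11.40 ± 0.17 in year 2 (n = 11), 11.41 ± 0.19 in year 3 (n = 6), 11.31 ± 0.16 in year 4 (n = 22), 11.28 ± 0.21 in 2008 (n = 39), 11.37 ± 0.21 in 2009 (n = 24), 11.22 ± 0.20 in 2010 (n = 21) and 11.15 ± 0.19 in 2011 (n = 15). The last 2 years thus held its lowest means. Its slope was -0.029 ± 0.0086 (SE) per year (adjusted p = 0.0033, limma). Within seasons it was -0.029 ± 0.018 (SE) in spring, -0.041 ± 0.014 in summer, -0.017 ± 0.019 in autumn and -0.0083 ± 0.033 in winter. All were negative, but the autumn and winter values were smaller than their SE. Without the 15 cows of 2011 the slope over all seasons was -0.018 and no longer passed (adjusted p = 0.159).

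PECAM1 averaged 9.89 ± 0.097 in year 1 (SD), 9.79 ± 0.17 in year 2, 9.83 ± 0.11 in year 3, 9.77 ± 0.14 in year 4, 9.82 ± 0.19 in 2008, 9.90 ± 0.23 in 2009, 10.01 ± 0.22 in 2010 and 9.85 ± 0.31 in 2011, over the same cows. Its slope was 0.022 ± 0.0093 (SE) per year (adjusted p = 0.0456, limma), which is close to the threshold. Within seasons it was positive in spring (0.024 ± 0.015, SE), autumn (0.032 ± 0.014) and winter (0.10 ± 0.040), and -0.0043 ± 0.017 in summer. The winter value rests only on the classes from winter2007/2008 to winter2010/2011. Without 2010 the slope over all seasons was 0.0098 (adjusted p = 0.442). Without year 4 it was 0.017 (adjusted p = 0.179), and with the first component as a covariate it was 0.021 (adjusted p = 0.102). The slope was steeper for cows from year 4 on (0.051, adjusted p = 0.0054), without the cow of lowest PECAM1 (0.028, adjusted p = 0.0041), without year 1 (0.031, adjusted p = 0.0171) and without 2011 (0.030, adjusted p = 0.0163). The slope missed the threshold with no block (adjusted p = 0.0599), with arrays centred on their medians (0.0506) and without the 5 arrays of lowest correlation (0.0605). It was thus positive under each of these alternatives, but its side of the threshold changed with the years included and with the processing. It passed in 10 of the 19 alternatives run.

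A year slope was common on these arrays: 44.9% of all transcripts passed the same test, with 25.7% of all transcripts upwards and 19.2% downwards, so that 2 of 6 genes is a share below that of all transcripts. The slopes of the other genes were -0.012 for LYVE1, -0.0079 for KDR, 0.012 for CDH5 and -0.0054 for TEK, with adjusted p-values between 0.280 and 0.691. The files used here give no scan or extraction date, so year of slaughter and any order of laboratory work cannot be told apart. A test of whether the year slope differed between seasons found no transcript past the threshold (0%), with an adjusted p of 0.978 for each of the 6 genes. KDR had the smallest unadjusted p of the 6 in that test (0.0183), with a slope of 0.13 ± 0.044 (SE) per year in winter against -0.010 in spring, -0.025 in summer and -0.014 in autumn.

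Over the 25 classes as a whole, none of the 6 genes passed the F-test, against 11.6% of all transcripts. EPAS1 had the lowest adjusted p (0.267), with class means from 11.08 ± 0.20 in Summer2011 (SD, n = 6) to 11.50 in the 2 cows of Summer2006. LYVE1 class means lay between 11.69 ± 0.25 in Spring2009 (n = 4) and 12.04 ± 0.20 in Spring2005 (n = 5), and its adjusted p was 0.821. The range of LYVE1 class means was thus about as wide as the spread of cows within these classes. Age at slaughter gave no call either, for the 6 genes or for any transcript (0%, with 930 transcripts at an unadjusted p under 0.05). EPAS1 had the largest age slope, 0.035 ± 0.016 (SE) per 100 days (p = 0.0295, adjusted p = 0.590), and the other 5 slopes were smaller than their SE.

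The question that these data answer with more precision is which of the 6 genes varied together from cow to cow within a class. KDR and TEK, the receptors for vascular endothelial growth factor and for angiopoietins, rose and fell together, as did the junction genes PECAM1 and CDH5. LYVE1 went with the receptors and not with the junction genes, and EPAS1 went with PECAM1. For each gene, the slope of every other transcript on that gene was fitted with class and age as terms and the p-values were adjusted over 10985 transcripts. Of 15 pairs, 10 passed the threshold in the fit on the gene named first in the order LYVE1, EPAS1, KDR, PECAM1, CDH5, TEK, and 9 passed in the fits on both genes. Slopes were frequent in all such fits: 68.0% of transcripts passed for LYVE1, 23.6% for EPAS1, 58.6% for KDR, 24.1% for PECAM1, 65.2% for CDH5 and 64.6% for TEK, so a pair past the threshold is ordinary and the size of r carries the information.

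**Figure D3:**
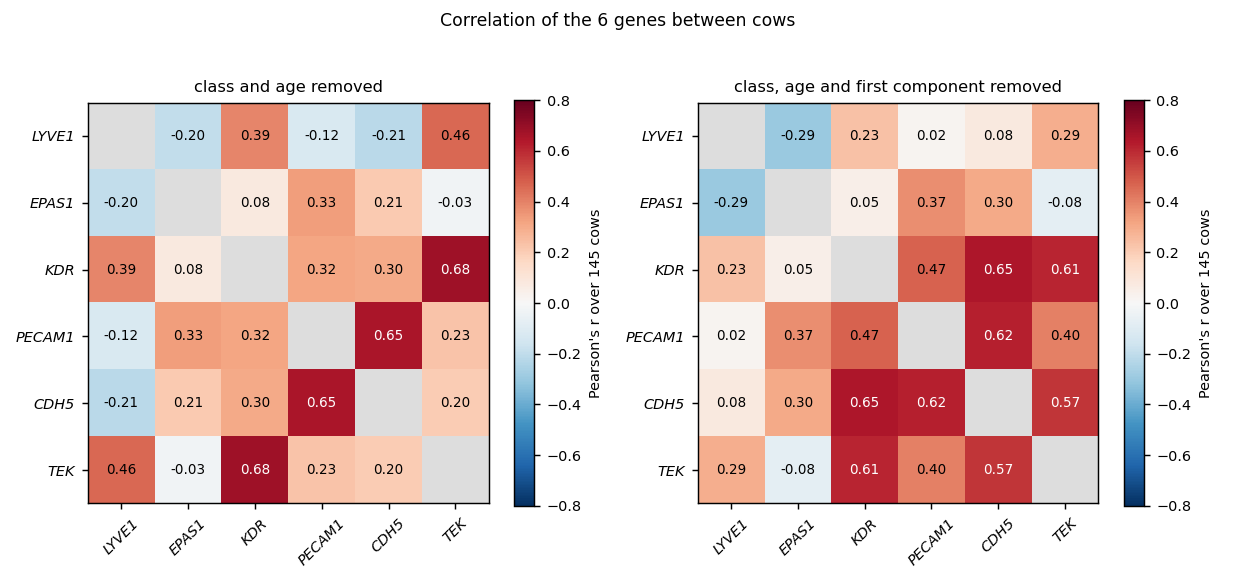
Pearson's r between residuals of the 6 genes over 145 cows, after class and age were removed (left) and after the first component was removed as well (right). KDR with TEK (0.68) and PECAM1 with CDH5 (0.65) are the highest on the left, and on the right KDR, PECAM1, CDH5 and TEK form 1 block with r from 0.40 to 0.65.

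KDR and TEK had r = 0.678 and rho = 0.679 over 145 cows (two-sided permutation p = 1e-05 for both, the smallest that 100000 permutations can give, and adjusted p = 6.17e-14 in limma). Only 3 transcripts were more strongly correlated with KDR than TEK was. PECAM1 and CDH5 had r = 0.650 and rho = 0.686 (permutation p = 1e-05 for both, adjusted p = 1.92e-11), the highest r of any transcript with PECAM1. With the 2 cows most distant from the median of the gene named first left out, r was 0.649 for KDR with TEK and 0.668 for PECAM1 with CDH5, so neither rested on the extreme cows. Within seasons KDR with TEK had r = 0.657 in spring, 0.749 in summer, 0.361 in autumn and 0.791 in winter. PECAM1 with CDH5 had 0.687, 0.578, 0.589 and 0.846 in the same order, and the differences between seasons were not tested.

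**Figure D4:**
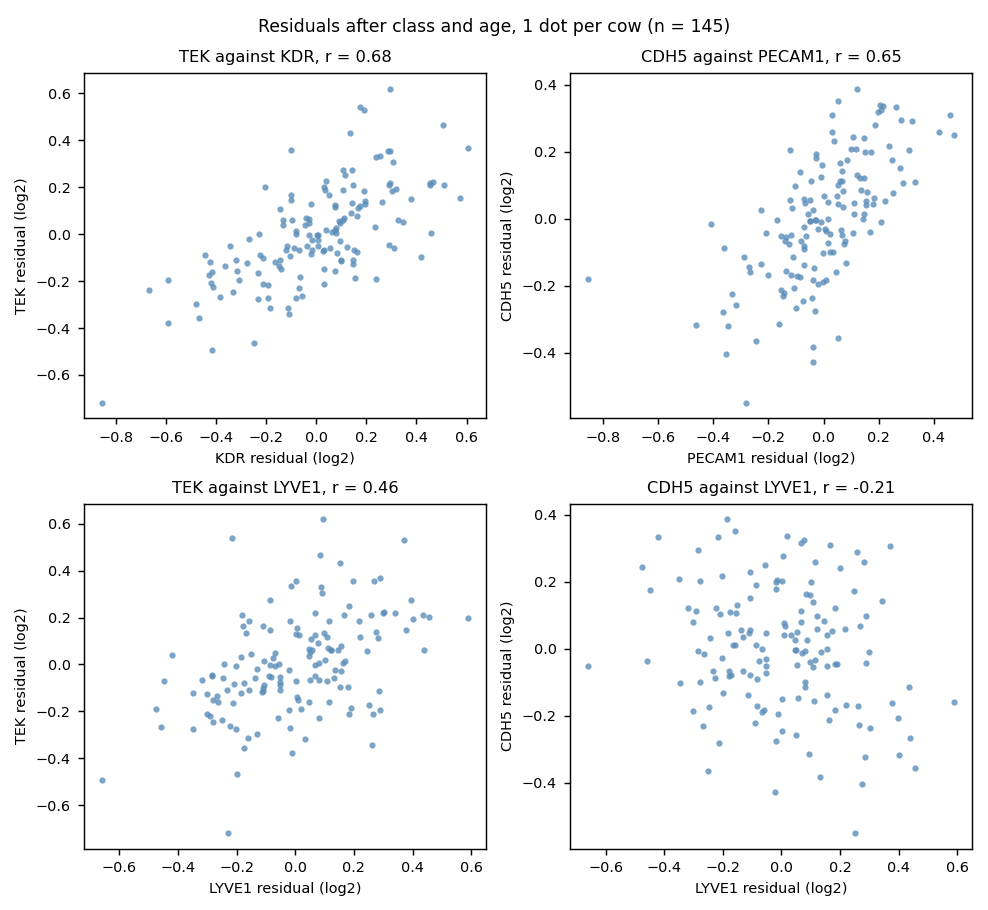
Residuals (log2) after class and age of 4 pairs of genes, with 1 dot per cow (n = 145). TEK follows KDR (r = 0.68), CDH5 follows PECAM1 (r = 0.65), TEK follows LYVE1 less closely (r = 0.46), and CDH5 against LYVE1 slopes slightly downwards (r = -0.21).

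LYVE1 had r = 0.459 with TEK and 0.394 with KDR (permutation p = 1e-05 for both), and the signs held within each of the 4 seasons. Among the r of all transcripts with LYVE1, these stood at the 90.0th and 81.7th percentile, so many transcripts followed LYVE1 as closely. With CDH5 its r was -0.213 (permutation p = 0.0102, adjusted p = 0.0305), with EPAS1 -0.199 (permutation p = 0.0163, adjusted p = 0.0448 in the fit on LYVE1 and 0.0979 in the fit on EPAS1) and with PECAM1 -0.120 (adjusted p = 0.236). These 3 pairs were positive in summer, at 0.181, 0.192 and 0.231, and negative in winter, at -0.412, -0.431 and -0.521, a difference that was not tested. EPAS1 had r = 0.334 with PECAM1 (permutation p = 4e-05, adjusted p = 0.0028), the 96.6th percentile among all transcripts. Over 6 alternatives the r of this pair was as low as 0.245. It passed in each, with the highest adjusted p (0.0134, limma) when the cow of lowest PECAM1 was left out. The r of EPAS1 was 0.209 with CDH5 (adjusted p = 0.0798), 0.079 with KDR (adjusted p = 0.576) and -0.027 with TEK (adjusted p = 0.875), so the 2 receptors were not detectably tied to EPAS1. Across the receptor and junction pairs, r was 0.315 for KDR with PECAM1, 0.303 for KDR with CDH5, 0.226 for PECAM1 with TEK (adjusted p = 0.0524) and 0.205 for CDH5 with TEK. In the same order these stood at the 80.3rd, 78.8th, 88.2nd and 65.6th percentile among all transcripts with the gene named first.

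The first component moved with most of these genes. Its r, with a sign that is arbitrary, was -0.530 with LYVE1, -0.452 with TEK and -0.399 with KDR, against 0.513 with CDH5, 0.262 with PECAM1 and -0.094 with EPAS1, so the receptors and LYVE1 lay at one end of it and the junction genes at the other. Once it was removed, the receptors and the junction genes joined: r was 0.645 for KDR with CDH5, 0.570 for CDH5 with TEK, 0.475 for KDR with PECAM1 and 0.400 for PECAM1 with TEK, while KDR with TEK kept 0.609 and PECAM1 with CDH5 kept 0.623. All 6 of these pairs passed the threshold in the fits on both genes (adjusted p at most 7.94e-04). EPAS1 then had 0.374 with PECAM1 and 0.302 with CDH5, both past the threshold in both fits. LYVE1 had 0.291 with TEK, 0.234 with KDR and -0.295 with EPAS1, none past it in the fit on LYVE1 (adjusted p of 0.0966, 0.190 and 0.0912) although each passed in the fit on the other gene, and 0.081 with CDH5 and 0.023 with PECAM1. In these fits only 0.355% of transcripts passed upwards and 0.0364% downwards for LYVE1, against 13.5% and 6.65% for KDR, 11.0% and 4.93% for TEK, 14.0% and 21.6% for EPAS1, 5.67% and 2.63% for CDH5, and 4.40% and 2.39% for PECAM1. What the component stands for was not tested.

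The transcripts most like each gene were taken by r of residuals over 145 cows, as a description with no test. KDR was most like ADGRF5, an adhesion G protein-coupled receptor of endothelium (r = 0.778), NNT, a mitochondrial transhydrogenase (0.688), ERG, a transcription factor of endothelium (0.687), TEK and FLT1, the VEGF receptor 1 (0.665). Its lowest values were with SLC37A4, a glucose 6-phosphate transporter (-0.605), and the docking protein GAB2 (-0.593). TEK shared ADGRF5 (0.693) and KDR with it, followed by the lectin CLEC1A (0.654), PROS1, the anticoagulant protein S (0.654), and CASP8 (0.651), with SAP30BP (-0.571) and VPS72 (-0.545) lowest. After the first component was removed, FLT4, the VEGF receptor 3, headed the KDR list (0.755), and the endothelial transcription factor ETS1 (0.570) entered the TEK list.

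CDH5 was most like FLT4 (r = 0.83), the highest value found for any of the 6 genes. It was followed by PPP1R16B, a phosphatase subunit of endothelial cells (0.708), the retinoic acid receptor RARG (0.700), the junction protein ESAM (0.699) and CD34 (0.693), with PGRMC2 (-0.620) and OGA (-0.580) lowest. PECAM1 was most like CDH5, then the protease CTSK (0.639), moesin, MSN (0.589), the endothelial protocadherin PCDH12 (0.586) and GNPDA1 (0.552), with MKX (-0.459) and NUS1 (-0.452) lowest.

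LYVE1 was most like QNG1, an enzyme of queuosine salvage (r = 0.644), PEX7, a peroxisomal import receptor (0.633), ALDH7A1, an aldehyde dehydrogenase of lysine breakdown (0.626), CREG1 (0.614) and DECR1, an enzyme of mitochondrial fatty acid oxidation (0.610), and least like RANBP3 (-0.593) and CARM1 (-0.578). With the first component removed, QNG1 (0.437), ALDH7A1 (0.435) and PEX7 (0.417) stayed in front. EPAS1 was most like ESYT2, a tether of the endoplasmic reticulum to the cell membrane (0.663), DENND5A (0.631), the helicase DDX24 (0.618), NID1, a basement membrane protein (0.580), and the spectrin SPTBN1 (0.577), and least like TST (-0.529) and CMBL (-0.505). These EPAS1 values hardly moved when the component was removed, with ESYT2 at 0.662 and DENND5A at 0.654.

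A list of 30 endothelial genes that holds none of the 6 genes was set beside them, and 17 of the list were measured. With PECAM1, 13 of the 17 passed upwards and 0 downwards, with a median r of 0.350 (over all transcripts the median was 0.034, and 11.3% passed upwards and 12.8% downwards). With CDH5, 12 passed upwards and 0 downwards, with a median r of 0.396 (over all 0.055, 35.3% upwards and 29.9% downwards), among them ESAM, CD34, CLEC14A (0.597) and ENG, a co-receptor for transforming growth factor beta (0.594). With KDR it was 6 up and 1 down, with a median r of 0.121 (over all -0.019, 31.0% upwards and 27.6% downwards), the one being PLVAP, a protein of fenestrated capillaries (-0.473). With TEK it was 6 up and 2 down, PLVAP (-0.197) and RAMP2 (-0.227), with a median r of 0.127 (over all -0.033, 32.6% upwards and 31.9% downwards).

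With EPAS1, 3 of the 17 passed upwards and 0 downwards: S1PR1, the endothelial receptor for sphingosine 1-phosphate (r = 0.416), FLT1 (0.321) and CD93 (0.263). Over all transcripts 9.67% passed upwards and 13.9% downwards. With LYVE1 the list split, 6 up and 7 down, with a median r of -0.161 (over all -0.046, 33.1% upwards and 34.9% downwards). CALCRL (0.427), FLT1 (0.397) and ERG (0.332) were highest, and ENG (-0.483), RAMP2 (-0.348) and MMRN2 (-0.339) were lowest. After the first component was removed, the counts up and down were 14 and 0 for CDH5, 12 and 0 for PECAM1, 12 and 0 for TEK, 11 and 1 for KDR, 5 and 0 for EPAS1, and 0 and 0 for LYVE1. The one gene past the threshold in the negative direction, with KDR, was again PLVAP (-0.509).

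**Figure D5:**
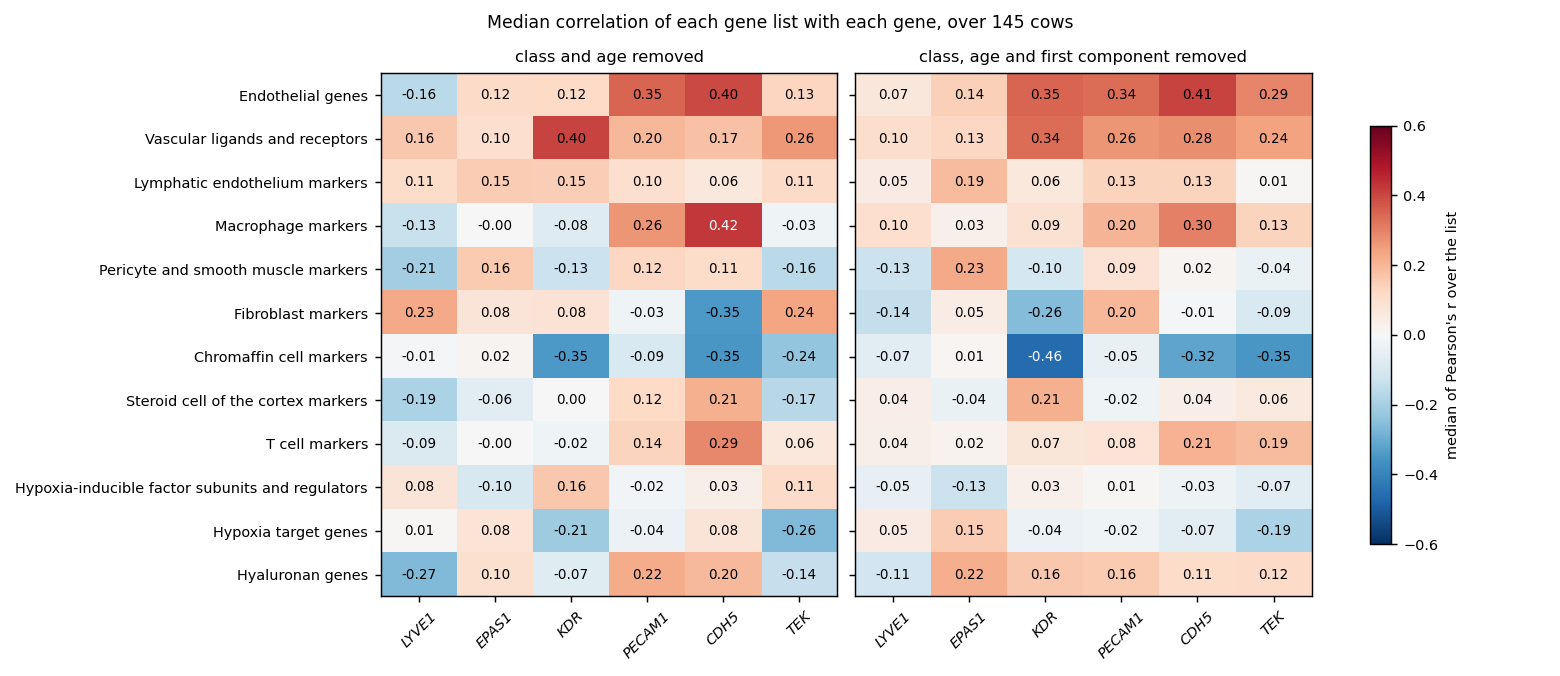
Median of Pearson's r over the measured genes of 12 lists (rows) with each of the 6 genes (columns) over 145 cows, after class and age were removed (left) and after the first component was removed as well (right). The endothelial list reaches 0.40 with CDH5 on the left and 0.41 on the right, the macrophage markers 0.42 with CDH5 on the left, and the chromaffin markers are lowest with KDR (-0.35 and -0.46).

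Among the vascular ligands and receptors, 10 of 16 were measured, KDR and TEK included. VEGFA, the main ligand of KDR, was not detectably tied to it (r = -0.025, adjusted p = 0.826), nor to TEK (-0.158, adjusted p = 0.115). VEGFA passed the threshold only in the fit on EPAS1 (r = 0.283, adjusted p = 0.0113). VEGFC, a ligand of FLT4 that also binds KDR, rose with KDR (0.431, adjusted p = 1.02e-05) and with TEK (0.364). PGF, placental growth factor and a ligand of FLT1, fell with higher KDR (-0.491), TEK (-0.397) and CDH5 (-0.264), and VEGFB had -0.513 with LYVE1 and 0.400 with CDH5. The neuropilin NRP1, a co-receptor, went with KDR (0.521) and TEK (0.365), and NRP2 with PECAM1 (0.433) and EPAS1 (0.388). Counts up and down over this list were 5 and 2 of 9 for KDR and for TEK, 5 and 1 of 10 for CDH5 and for LYVE1, 4 and 0 of 10 for PECAM1, and 3 and 0 of 10 for EPAS1. Over all transcripts the shares up and down were 31.0% and 27.6% for KDR, 32.6% and 31.9% for TEK, and 33.1% and 34.9% for LYVE1. They were 35.3% and 29.9% for CDH5, 11.3% and 12.8% for PECAM1, and 9.67% and 13.9% for EPAS1.

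EPAS1 acts as a dimer with ARNT or ARNT2, and VHL with the prolyl hydroxylases EGLN1 and EGLN2 marks it for breakdown when oxygen is plentiful. Of the other 7 measured genes of that list, 1 passed in the fit on EPAS1: ARNT2, upwards (r = 0.291, adjusted p = 0.0096). EGLN1 had r = -0.231 (adjusted p = 0.0502), HIF1A 0.104 and ARNT -0.144. Of 9 measured hypoxia target genes, again 1 passed with EPAS1, VEGFA, against 23.6% of all transcripts in either direction. With KDR and with TEK, 2 of these 9 targets passed upwards and 5 downwards, with LYVE1 and with CDH5 it was 2 and 3, and with PECAM1 1 and 0. Over all transcripts the shares up and down were 31.0% and 27.6% for KDR, 32.6% and 31.9% for TEK, and 33.1% and 34.9% for LYVE1. They were 35.3% and 29.9% for CDH5, and 11.3% and 12.8% for PECAM1. PDK1, a kinase that restrains pyruvate oxidation, was the highest with KDR (0.501) and BNIP3, a mitochondrial receptor for mitophagy, the lowest (-0.519).

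LYVE1 was compared with the other hyaluronan genes, of which 4 were measured. With LYVE1, 3 of them passed downwards and 0 upwards, against 34.9% of all transcripts downwards: the hyaluronidases HYAL2 (r = -0.411) and HYAL1 (-0.319) and the synthase HAS3 (-0.212), while CD44, another hyaluronan receptor, had -0.137 (adjusted p = 0.170). None passed once the first component was removed. With the component kept, HAS3 and CD44 passed upwards with EPAS1 (0.354 and 0.237). HYAL1 (0.425), HYAL2 (0.418) and HAS3 (0.196) passed upwards with CDH5, and HYAL1 (0.265) and HYAL2 (0.290) with PECAM1. HYAL2 (-0.331) and CD44 (-0.309) passed downwards with KDR. Of 9 lymphatic markers 4 were measured, of which PROX1, the transcription factor of lymphatic identity (0.230), and NR2F2 (0.203) passed with LYVE1, while FLT4 (-0.156) and podoplanin, PDPN (0.020), did not, and none passed with the component removed. Over all transcripts 33.1% passed upwards with LYVE1. The counts of lymphatic markers up and down with the other genes were 1 and 0 for EPAS1 (PDPN, 0.261), KDR and PECAM1 (both FLT4), 1 and 1 for CDH5 (FLT4 and PROX1, -0.253) and 0 and 0 for TEK. The upward shares of all transcripts were 9.67% for EPAS1, 31.0% for KDR, 11.3% for PECAM1, 35.3% for CDH5 and 32.6% for TEK. The downward share for CDH5 was 29.9%.

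Markers of other cell types moved with some of the 6 genes. All 9 measured macrophage markers, such as CSF1R (r = 0.486) and FOLR2 (0.479), passed upwards with CDH5, and 8 of 9 with PECAM1, which is also carried by leukocytes. Over all transcripts 35.3% passed upwards with CDH5 and 11.3% with PECAM1. With the first component removed, 7 of the 9 markers passed with CDH5 and 3 with PECAM1. The mean signal of the macrophage markers per cow ran from 7.31 to 10.16. With LYVE1, which some macrophages carry, 0 passed upwards and 2 downwards (MS4A7, -0.251, and FOLR2, -0.195), and with KDR, TEK and EPAS1 none passed. Over all transcripts 33.1% passed upwards and 34.9% downwards with LYVE1, and 58.6%, 64.6% and 23.6% in either direction with KDR, TEK and EPAS1. The part of macrophages in the values of CDH5 and PECAM1 was not tested.

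All 6 chromaffin markers fell with higher KDR (r from -0.254 for CHGB to -0.425 for PNMT) and with higher CDH5 (-0.293 for DBH to -0.430 for CHGB), and 4 of 6 with higher TEK. Over all transcripts 27.6% passed downwards with KDR, 29.9% with CDH5 and 31.9% with TEK. None of the 6 markers passed with LYVE1, EPAS1 or PECAM1, whose r with the mean of the chromaffin markers were 0.012, 0.038 and -0.093, against -0.370 for KDR, -0.373 for CDH5 and -0.243 for TEK. With that mean as a covariate, KDR with TEK had r = 0.653, PECAM1 with CDH5 0.666 and LYVE1 with TEK 0.477, against 0.678, 0.650 and 0.459 without it. KDR with CDH5 dropped to 0.191 (adjusted p = 0.0560) and CDH5 with TEK to 0.127 (adjusted p = 0.221), and these 2 pairs then missed the threshold.

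Of the other lists, the 6 measured steroid cell markers included MC2R, the corticotropin receptor, which was high where KDR (r = 0.638, adjusted p = 1.01e-11), TEK (0.470) and LYVE1 (0.390) were high and kept 0.580 with KDR after the first component was removed. The other 5 steroid cell markers had r between -0.193 and 0.079 with KDR, and none passed. With the component removed they had r between -0.018 and 0.231 with KDR, and again none passed. The r of KDR with the mean of all 6 went from 0.185 to 0.455. With the component kept, counts of the 6 up and down were 1 and 2 for LYVE1 and for TEK, 2 and 0 for CDH5, and 0 and 0 for EPAS1 and PECAM1. For these counts and those of the next lists, the shares of all transcripts up and down were 33.1% and 34.9% for LYVE1. They were 32.6% and 31.9% for TEK, 31.0% and 27.6% for KDR, and 35.3% and 29.9% for CDH5. For PECAM1 they were 11.3% and 12.8%, and for EPAS1 9.67% and 13.9%. Of 5 measured pericyte and smooth muscle markers, 1 passed upwards and 4 downwards with LYVE1, 2 upwards and 1 downwards with CDH5, 2 upwards with PECAM1, 1 upwards with EPAS1, CNN1 (0.294), 1 downwards with KDR, again CNN1 (-0.211), and none with TEK. The 3 fibroblast markers DCN, LUM and PDGFRA passed upwards with LYVE1 (0.213 to 0.259), and their mean was the one most closely tied to the first component (r = -0.666). Without that component none passed with LYVE1. DCN (-0.456) and LUM (-0.345) passed downwards with CDH5, PDGFRA passed upwards with KDR (0.319) and TEK (0.456), LUM upwards with TEK (0.236), and none passed with EPAS1 or PECAM1. Both measured T cell markers, CD3D and CD3E, passed upwards with CDH5 (0.311 and 0.263) and with none of the other 5 genes. Neither passed with CDH5 once the first component was removed. None of 4 red blood cell markers was measured.

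Over the years of slaughter the vascular and hypoxia lists moved as follows, against 44.9% of all transcripts in the same test. In the endothelial list 4 of 17 rose, RAMP2 (0.078 per year, adjusted p = 2.03e-06), CLEC14A (0.053), LMO2 (0.046) and ESAM (0.035), and NRP1 fell (-0.033). In the hypoxia-inducible factor list, EPAS1 fell together with ARNT2 (-0.049, adjusted p = 1.92e-04) and HIF1A (-0.038, adjusted p = 0.0488), and VHL rose (0.028). Of the hypoxia target genes 3 of 9 rose and 0 fell: PGK1, an enzyme of glycolysis (0.032), VEGFA (0.036, adjusted p = 0.0465) and NDRG1 (0.027). Among the ligands VEGFB (0.028) and VEGFC (0.031) rose as well. No gene of any list passed for season, summer minus winter or age, and RAMP2 was the only one past the threshold for class (adjusted p = 8.22e-04).

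In the gene order of the RefSeq annotation, some of the 6 genes varied with measured neighbours. RNF141, the next measured gene beside LYVE1, had r = 0.581 with it (0.346 with the first component removed), whereas EIF4G2 on the other side had 0.467 (0.020) and ADM, 3 places away, 0.029. MIR2315, 2 places from LYVE1, had 0.556 (0.282), and ZNF143, 6 places away, had 0.542 (0.194). TMEM9B, 11 places from LYVE1, had 0.451 and kept 0.397, which put it among the 5 transcripts most like LYVE1 with the component removed. SPTBN1, named above as like EPAS1, lies 17 places from it in that order. LHCGR, the receptor for luteinizing hormone, lies 10 places from EPAS1 and had r = -0.357 (-0.353 with the component removed). Over the 20 nearest measured genes of EPAS1 the r otherwise lay between -0.216 and 0.245, so a shared position went with a shared level for few of them. CMTM3, 3 places from CDH5, had 0.611 (0.425), and PDGFRA, next to KDR, had 0.319 (0.255). PLAA, next to TEK, had 0.537 (0.340) and C9orf72, 2 places away, 0.570 (0.390), whereas MOB3B on the other side of TEK had -0.042 (0.080). Over the 20 nearest measured genes of TEK the r lay between -0.346 and 0.570.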

How the data were processed

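Adrenal cortex RNA was measured on the custom Affymetrix GeneChip Bovine Gene v1 array, 1 for each cow. The authors used RMA in Affymetrix Expression Console on the scans, kept transcripts detected above background, and deposited log2 signals of 10986 transcripts. Of 147 columns, 2 hold no values and were not used. The platform annotation gives 1 gene symbol for 8863 transcripts, several for 377 and none for 1746. Of 8742 gene identifiers, 8689 were found in RefSeq, which was used for names and gene order only. A winter was counted with its first year. Fits used limma 3.58.1 in R 4.3.3: 25 classes and age for class, age, residuals and slopes on a gene, and season, year and age with classes as random blocks (duplicateCorrelation with statmod 1.5.0, correlation -0.0154) for season and year. The p-values were adjusted by Benjamini-Hochberg over all transcripts, with a threshold of 0.05. Mixtures used mclust 6.1.1, and correlations 100000 permutations of cows, as if independent. Pedigree and genotypes were not analysed here, and since the cows were related these p-values may be too small. The permutations also shuffled residuals of 145 cows although the class and age fit left 119 degrees of freedom, which makes the permutation p-values smaller than they should be. The text names, for each gene, the 5 transcripts of highest and the 2 of lowest r, and from each list those past a threshold or up to 4 of the largest values. The members and lists were chosen with earlier results of these data known. Fits were tested on simulated data with independent noise. At 0.5 residual SD they recovered 46.5% of the changed transcripts for class, 0% for summer minus winter and 20.5% for year (per 4 years). At 1 residual SD these shares were 100%, 73.5% and 97.0%. Slopes on a gene were recovered for 99.5% at 0.5 residual SD.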

Additional observations from a re-analysis of the deposited data

Results flagged for a closer look

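Within the 19 classes of 4 to 10 cows, the highest and lowest cow of each of the 6 genes were checked for a gap to the others that is large for the range of the class (Dixon's test). Of 114 such checks, 7 stood out, and chance alone gives about 1 in 20. They came from 7 different cows, so no cow was flagged for more than 1 gene. The check marks only a gap at the end of a class. A cow low or high for several genes without such gaps would not be marked. EPAS1 was high in 1 cow of Spring2005, at 11.7064 against 11.3754 for the next of 5 cows, and in 1 cow of Summer2009, at 11.8079 against 11.4181 for the next of 9. PECAM1 was high in 1 cow of Spring2009, at 10.1513 against 9.842 for the next of 4. It was low in 1 cow of Summer2008, at 9.4317 against 9.7683 (8 cows), in 1 of Summer2011, at 8.8522 against 9.7274 (6 cows), and in 1 of winter2007/2008, at 9.4358 against 9.7692 (7 cows). TEK was low in 1 cow of autumn2004, at 8.6808 against 9.069 for the next of 4. LYVE1, KDR and CDH5 had no such cow.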

How the results depend on the processing

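For class, age, season and summer minus winter, 0 of the 6 genes passed under every alternative run. The year count was 1 instead of 2 with the first component as a covariate, with arrays centred on their medians, without the 5 arrays of lowest correlation, with no block, and without year 2, year 4, 2008, 2009, 2010 or 2011 (lowest count 1, highest 2), and the gene lost was EPAS1 without 2011 and PECAM1 otherwise. The count of genes with several components was 0 instead of 1 with unequal variances, with the deposited values and with the first component removed. Pairs past the threshold numbered 8 to 11, against 10. Over all transcripts the first component as a covariate gave 5743 calls instead of 1273 for class and 657 instead of 0 for age. The component comes from the residuals of that fit, so it cannot shift the class and age estimates and only takes up residual variance. For LYVE1 the age slope stayed at -0.0014, with an SE of 0.017 against 0.020. The covariate also gave 121 calls instead of 0 for season and 98 instead of 0 for summer minus winter, where the cause was not tested. Values that changed sign were near 0 or not past the threshold, except the r of LYVE1 with CDH5 and EPAS1 and of CDH5 with TEK. For age, PECAM1 was 0.0021 and CDH5 0.0055 without the 5 arrays, KDR 4.1e-05 with the chromaffin mean, and PECAM1 0.0012 without the cow of lowest PECAM1. For summer minus winter, CDH5 was 0.0077 without the 5 arrays, 0.0071 without age, 0.034 with the chromaffin mean, 0.0061 without the cow of lowest PECAM1, 0.0099 with winters counted for the year they ended in, and 0.0020, 0.061 and 0.021 without year 3, 2010 and 2011. PECAM1 was -0.042 for cows from year 4 on and -0.0063, -0.0042, -0.0096, -0.029 and -0.035 without year 1, year 2, year 4, 2008 and 2009, and EPAS1 was -0.0084 without 2008. For year, KDR was 0.0092 for cows from year 4 on, 2.1e-04 without year 1 and 5.4e-04 without 2011, and TEK was 0.011 without 2011. With the first component as a covariate r was 0.0229 for LYVE1 with PECAM1 and 0.0811 for LYVE1 with CDH5, with no covariates 0.0173 for EPAS1 with TEK, within summer 0.192 for LYVE1 with EPAS1, 0.231 for LYVE1 with PECAM1 and 0.181 for LYVE1 with CDH5, and within autumn -0.139 for CDH5 with TEK. The mean of several transcripts per symbol could not differ, as each gene has 1. Counting winters for the year they ended in could not change a year slope, since the season term takes up the shift. No paired analysis was possible because a cow's number within its class is only a name, given in order of listing, and ties no cow to one of another class.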
